A study of Mus musculus with 4 samples.

Results

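The genes described here are 9 nuclear genes that control the making of mitochondria. Tfam, Tfb2m and Polrmt act on the mitochondrial genome, and Tfb1m on a mitochondrial rRNA. Nrf1, Gabpa and Esrra are transcription factor genes, and Ppargc1a and Ppargc1b are coactivator genes. The 9 genes were chosen by name for their known function, with earlier results of these data known. Their counts are thus a description and not independent evidence. Each of the 9 names matched 1 of the 22380 protein-coding genes of the GENCODE M1 annotation on mm9. Of the 4 samples of the series, peak lists were used for Bio-Myc and for Max, 1 library each. Bio-Myc was purified on streptavidin from a stable clone of E14 mouse ESCs, made in cells that carry the biotin ligase BirA, in which an EF1α promoter drives Myc with an N-terminal biotin tag, and Max was precipitated with an antibody from parental wild-type E14 cells. Both were grown with serum and LIF. Mock and IgG ChIPs served the authors as controls for peak calling and were not analysed here on their own. Since each list comes from 1 library, and the Bio-Myc list from 1 clone, no value below has an error between cultures and no difference was tested. A difference between Myc and Max cannot be told apart from one between the clone, with BirA and added Myc, and the parental cells, or between the beads and the antibody. A missing peak means that none passed the p-value limit in that library, whose depth is unknown.

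Mitochondria carry a small genome of their own, but nearly all of their proteins, and every factor that copies or transcribes that genome, are encoded in the nucleus. Polrmt is the RNA polymerase of mitochondria, Tfam packages the mitochondrial DNA and opens the way for the polymerase, Tfb2m melts the promoter, and Tfb1m methylates an rRNA of the small mitochondrial ribosome subunit. Nrf1, GABP (of which Gabpa is the DNA-binding subunit) and the orphan nuclear receptor Esrra switch on nuclear genes for mitochondrial proteins, and the coactivators Ppargc1a and Ppargc1b work through such factors. Myc, which binds the E-Box CACGTG as a dimer with Max, is known to promote mitochondrial biogenesis in other cell types.

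Bio-Myc was bound, meaning that a peak lay, within 1 kb of an annotated TSS in 7 of the 9 genes (Tfam, Tfb1m, Polrmt, Nrf1, Gabpa, Ppargc1b and Esrra), against 14.6% of all protein-coding genes. A Max peak did in 8 of the 9, the same 7 and Tfb2m, against 34.8% of protein-coding genes. Both peaks were thus found at 7 of the 9 genes (12.7% of protein-coding genes). A Max peak alone was found at Tfb2m (22.1% of protein-coding genes), and neither at Ppargc1a (14149 of 22380 protein-coding genes). The peaks counted at Gabpa and at Tfb2m also covered a TSS of a neighbouring gene. The Max list is the longer, and it was also cut to its 3962 highest scores, as many as the Bio-Myc list holds. The share of protein-coding genes with a Max peak then fell to 15.5%, and the call at Tfb2m was lost. Under this cut, 5 of the members had both peaks (8.33% of protein-coding genes). A Bio-Myc peak alone was left at 2 (Polrmt and Nrf1), a Max peak alone at 0, and neither at 2 (Tfb2m and Ppargc1a). The shares of protein-coding genes with a peak of a single list, or with neither, are not given for the cut. Within 5 kb of a TSS the counts were the same 7, 8 and 7, against 16.6%, 38.6% and 14.5% of protein-coding genes. By the nearest peak of each gene in each list, no member lay close to these limits. The farthest nearest peak within 1 kb was the Max peak 164 bp from a TSS of Esrra, and among the members with no peak of a list within 5 kb, the closest was the Bio-Myc peak 15.3 kb from a TSS of Tfb2m. The map of peaks around the 9 genes shows the positions.

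**Figure D1:**
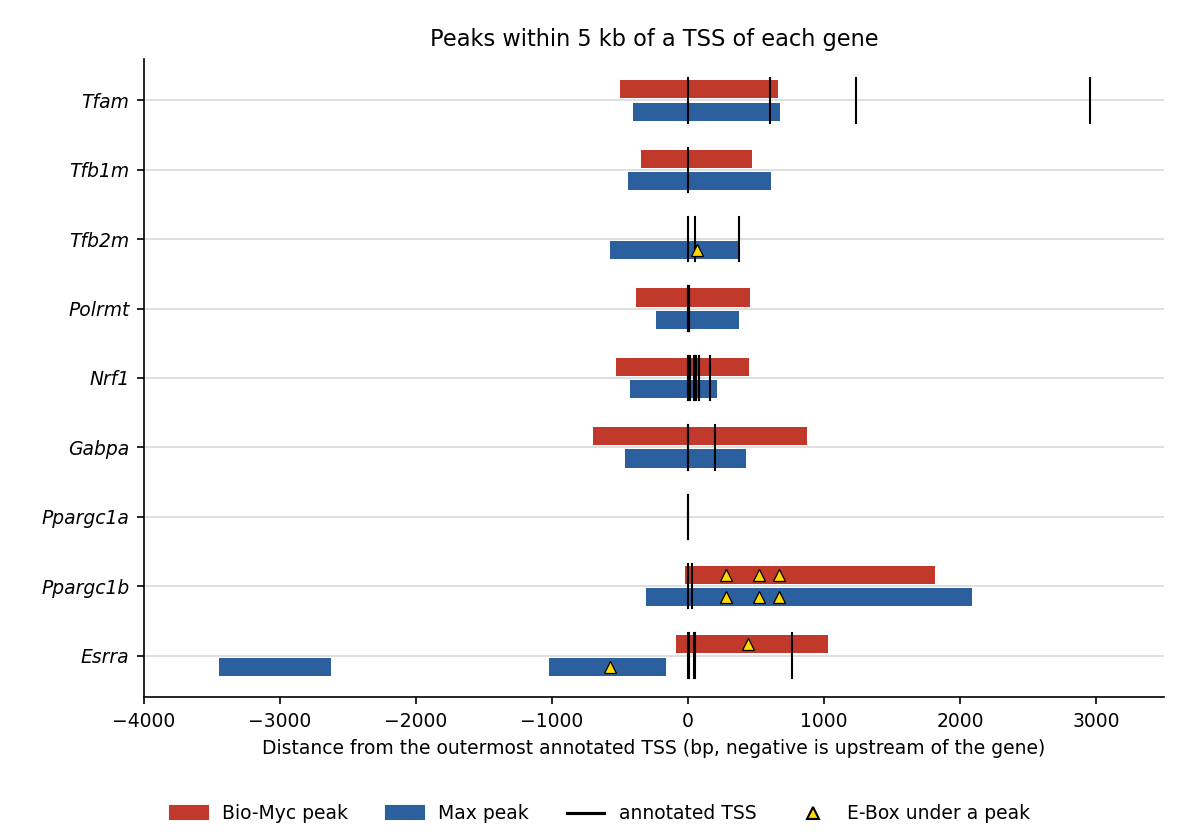
Peaks of Bio-Myc (red) and Max (blue) within 5 kb of a TSS of each gene, by distance in bp from the outermost annotated TSS, with negative values upstream of the gene, black ticks for annotated TSSs in view and triangles for E-Boxes under a peak. Peaks of both lists sit on the TSS of 6 genes, those of Esrra lie side by side, Tfb2m has a Max peak only and Ppargc1a has none.

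The Bio-Myc peaks of the members lay on both sides of the middle of their list, and the Max peaks mostly above that of theirs. The score is 10 times the −log10 of the MACS p-value, so that 80 is the lowest score the limit of 1e-08 allows. The 7 Bio-Myc peaks scored from 87.6 to 202 with a median of 136, where the median of all 3962 Bio-Myc peaks was 129, and 4 of the 7 lay above that median. The 8 Max peaks within 1 kb scored from 99.8 to 452 with a median of 240.3, where the median of all 11570 Max peaks was 160.3, and 7 of the 8 lay above it. The medians were higher among peaks within 1 kb of a protein-coding TSS, with 137.8 for Bio-Myc (2900 peaks) and 181.2 for Max (7569 peaks). Against these like-placed peaks, 3 of the 7 members with a Bio-Myc peak scored above the median, and 6 of the 8 with a Max peak. In both lists Ppargc1b had the highest score of the members, Tfam the next, and Polrmt the lowest. Under a p-value limit of 1e-11, 6 members had a Bio-Myc peak (10.2% of protein-coding genes) and 7 a Max peak (28.8%), Polrmt being lost from both. Under a limit of 1e-15, only Tfam and Ppargc1b kept a Bio-Myc peak, 2 of 9 against 6.85% of protein-coding genes, while 7 kept a Max peak (22.6%).

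**Figure D2:**
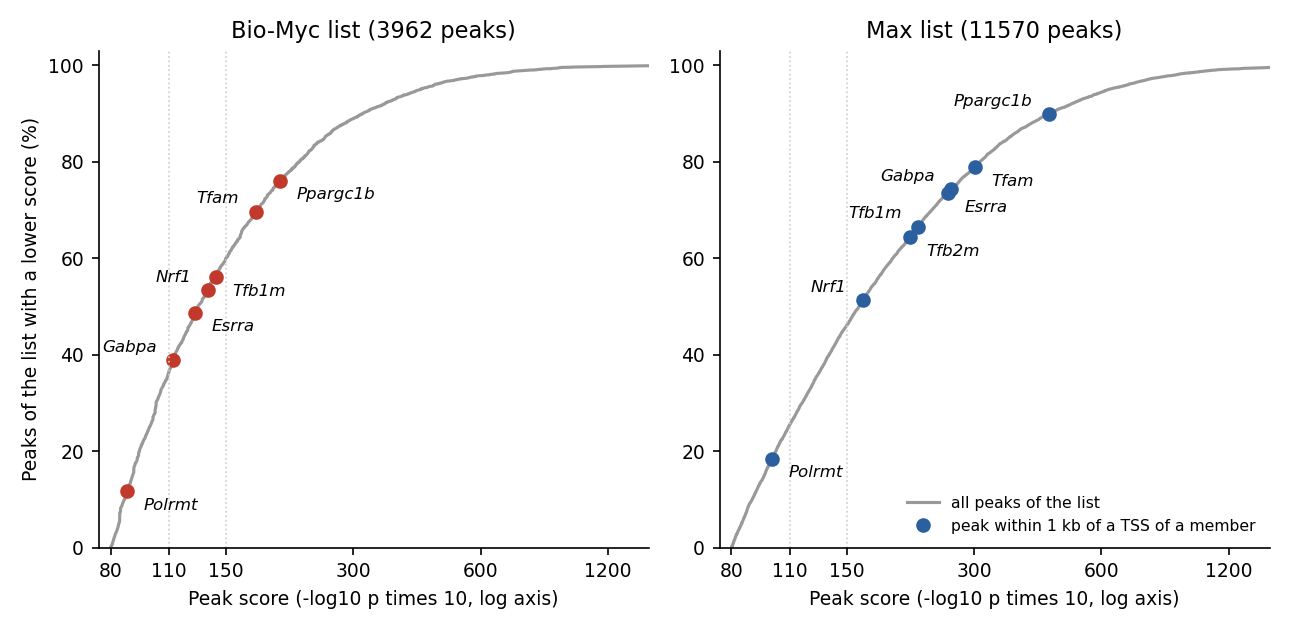
Score of each peak within 1 kb of a TSS of a member (dots, log axis) against the percentage of its list with a lower score, on the curve of all peaks of the Bio-Myc list (left) and the Max list (right), with dotted lines at the scores of p-values of 1e-11 and 1e-15. Only Tfam and Ppargc1b pass the 1e-15 line in the Bio-Myc list, and only Polrmt fails it in the Max list.

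Among the genes that act on the mitochondrial genome or an rRNA of mitochondria, Tfam (ENSMUSG00000003923.8) spans 70688212 to 70701028 on chromosome 10, minus strand. Its Bio-Myc peak (70700367 to 70701530) scored 177, above 69.7% of the Bio-Myc list, and its Max peak (70700355 to 70701436) scored 301, above 78.9% of the Max list. The peaks shared 1070 bp, and their centres were 53 bp apart. Each covered 2 of the 4 annotated TSSs of Tfam, the outermost at 70701028 and a second within the gene. Neither held a CACGTG. What both held was 1 CACATG and 1 GABP motif (CCGGAAGT, searched on both strands like every sequence here), which lay 189 to 196 bp downstream of the outermost TSS. The 250 bases before that TSS are shown because they lie under both peaks yet hold no E-Box, no CACGCG or CACATG and no NRF1, GABP or ERR motif. They are given in the direction of the gene at chr10:70701029-70701278 in mm9, with the GABP motif and its flanks (chr10:70700821-70700850) below them, where capitals mark the motif.
Tfam upstream: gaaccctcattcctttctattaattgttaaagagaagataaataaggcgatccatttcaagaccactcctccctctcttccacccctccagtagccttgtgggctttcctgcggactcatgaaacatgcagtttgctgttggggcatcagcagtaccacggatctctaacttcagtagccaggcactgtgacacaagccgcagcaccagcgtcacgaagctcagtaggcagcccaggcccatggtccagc
Tfam GABP motif: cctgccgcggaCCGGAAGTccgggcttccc

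Tfb1m (ENSMUSG00000036983.6, minus strand of chromosome 17, 3519263 to 3557713) has a single annotated TSS. It was covered by Bio-Myc between 3557240 and 3558058, scoring 142, and by Max between 3557105 and 3558154, scoring 221. The Bio-Myc peak lay wholly within the Max peak. The scores were above 56.1% and 66.6% of their lists. Neither peak held a CACGTG, and both held 1 CACGCG, a non-canonical E-Box, from 26 to 21 bp upstream of the TSS. It is marked in capitals, as CGCGTG on this strand, near the end of the 250 bases before the TSS (chr17:3557714-3557963, mm9).
Tfb1m upstream: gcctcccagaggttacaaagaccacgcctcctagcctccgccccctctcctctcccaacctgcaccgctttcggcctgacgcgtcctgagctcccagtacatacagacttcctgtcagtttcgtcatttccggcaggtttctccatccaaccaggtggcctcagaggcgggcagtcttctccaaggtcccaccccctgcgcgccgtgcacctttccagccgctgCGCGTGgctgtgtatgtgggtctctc

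Polrmt (ENSMUSG00000020329.6) spans 79198868 to 79209326 on chromosome 10, minus strand. It had the weakest peaks of the members in both lists. The Bio-Myc peak from 79208868 to 79209709 scored 87.6, above 11.8% of its list, and the Max peak from 79208954 to 79209561 scored 99.8, above 18.5%. The Max peak lay wholly within the Bio-Myc peak, their centres were 31 bp apart, and each covered 4 of the 11 annotated TSS positions. No CACGTG was found, but both peaks held 2 copies of CACGCG, side by side at the outermost TSS. The 30 bases around the copy nearer to the gene (chr10:79209308-79209337, mm9) hold both, and capitals mark the second.
Polrmt CACGCG: aggcggcgcgtgCGCGTGcgcactgcgggc

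Tfb2m (ENSMUSG00000026492.5, minus strand of chromosome 1, 181458186 to 181476398) was the member with a Max peak alone. That peak, between 181476028 and 181476969, scored 211, above 64.4% of the list, and covered 2 of its 5 annotated TSSs, the outermost included. The same peak covered a TSS of Cnst, the neighbour on the plus strand, so the peak cannot be assigned to either gene. It held 1 E-Box, 62 bp downstream of the outermost TSS of Tfb2m in the 5′ UTR and 165 bp from the centre of the peak, and 1 NRF1 core (CGCATGCG), which began 3 bp downstream of that TSS. The nearest Bio-Myc peak, between 181447601 and 181448462 and scoring 154, was 15.3 kb downstream of a TSS within the gene and 27936 bp downstream of the outermost TSS. It covered a TSS of Smyd3, a gene for a SET domain methyltransferase. Both sites of Tfb2m are shown with their flanks, the E-Box at chr1:181476319-181476348 and the NRF1 core at chr1:181476377-181476406 (mm9, direction of the gene).
Tfb2m E-Box: gtgaaatgtgtgCACGTGtgatggggtgct
Tfb2m NRF1 core: gctaggtcgttCGCATGCGccattcgtaat

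Among the nuclear transcription factors, Nrf1 (ENSMUSG00000058440.7) spans 29997988 to 30103458 on chromosome 6, plus strand, and has 17 annotated TSS positions. Bio-Myc was bound between 29997462 and 29998439, scoring 136, and Max between 29997564 and 29998203, scoring 164, and each peak covered 10 TSSs at the 5′ end of the gene. The other TSSs, farther into the gene, were not covered. The scores lay near the middle of both lists, above 53.4% and 51.3% of the peaks, and the Max peak lay wholly within the Bio-Myc peak. There was no CACGTG under either, and 1 CACGCG from 32 to 27 bp upstream of the outermost TSS. Of the 9 promoters this one had the highest GC content, as the 250 bases before the TSS show (chr6:29997738-29997987, mm9), in which capitals mark the CACGCG as CGCGTG.
Nrf1 upstream: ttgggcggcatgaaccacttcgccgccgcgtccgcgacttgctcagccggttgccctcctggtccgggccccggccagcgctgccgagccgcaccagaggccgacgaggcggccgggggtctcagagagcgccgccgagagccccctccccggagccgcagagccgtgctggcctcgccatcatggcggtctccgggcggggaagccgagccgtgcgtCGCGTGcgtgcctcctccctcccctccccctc

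Gabpa (ENSMUSG00000008976.9, plus strand of chromosome 16, 84835170 to 84864024) had a broad Bio-Myc peak of 1572 bp from 84834471 to 84836042 with a score of 113, above 38.9% of the list. Its Max peak (84834710 to 84835595) scored 265, lay wholly within it and was above 74.4% of the Max list. Each covered 3 of its 6 annotated TSSs. Both also covered TSSs of Atp5j, the gene of a subunit of the mitochondrial ATP synthase. Atp5j runs in the other direction and overlaps the start of Gabpa. The peaks thus lie in a promoter region that these genes share and cannot be assigned to either gene. Gabpa was the only member whose peaks held neither CACGTG nor CACGCG nor CACATG. Both peaks held 1 GABP motif, 67 to 60 bp upstream of the outermost TSS, and 1 NRF1 core, 191 to 198 bp downstream. They are shown as motifs of GABP and Nrf1 themselves, at chr16:84835092-84835121 and chr16:84835350-84835379 (mm9). The GABP motif appears as its reverse complement.
Gabpa GABP motif: gccaccgttctACTTCCGGccctggctccg
Gabpa NRF1 core: actgcactgtaCGCATGCGtattctggcct

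At Esrra (ENSMUSG00000024955.7, minus strand of chromosome 19, 6985467 to 6996303) Bio-Myc and Max peaks lay on opposite sides of the start of the gene. The Bio-Myc peak (6995275 to 6996388) scored 127, covered all 5 annotated TSSs and was centred 472 bp downstream of the outermost, in an intron. The nearest Max peak (6996467 to 6997325) scored 259 and its near edge lay 164 bp upstream of that TSS. The peaks were separated by 78 bp, and their centres by 1065 bp. Of the 2832 protein-coding genes with both peaks within 1 kb, 58 (2.05%) had no overlap between them. Each peak had an E-Box of its own close to its centre. The E-Box under the Bio-Myc peak lay in the intron, 441 bp downstream of the outermost TSS and 28 bp from the centre of the peak, and that under the Max peak lay 577 bp upstream of the TSS and 19 bp from the centre. A further Max peak (6998927 to 6999749) scored 133, lay 2624 bp upstream and held no E-Box. The nearer Max peak was the only promoter peak of a member with an ERR motif (TCAAGGTCA), the sequence that the Esrra protein binds. The E-Boxes with their flanks are at chr19:6995845-6995874 and chr19:6996863-6996892. The 250 bases before the TSS (chr19:6996304-6996553, mm9) contain the gap between the peaks, and their capitals mark 2 overlapping CACGCG matches, 1 on each strand, which lie in the gap and so under neither peak.
Esrra E-Box under Bio-Myc: gtcccttgaggcCACGTGggggcgcttgca
Esrra E-Box under Max: gtgaggcggacgCACGTGgccccgcctttc
Esrra upstream: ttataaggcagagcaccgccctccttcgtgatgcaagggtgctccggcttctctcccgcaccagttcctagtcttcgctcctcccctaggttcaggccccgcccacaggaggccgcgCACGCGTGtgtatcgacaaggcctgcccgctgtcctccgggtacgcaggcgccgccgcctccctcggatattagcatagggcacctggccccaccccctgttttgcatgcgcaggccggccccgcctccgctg

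Of the coactivators, Ppargc1a, which is known for its part in tissues that burn much fat such as muscle and brown fat, was the member without a peak. It spans 51845488 to 51958964 on chromosome 5, minus strand (ENSMUSG00000029167.7), with 4 annotated TSSs. No peak of either list lay in the gene or within 50 kb of it. The nearest Max peak, between 52506957 and 52507689 and scoring 97.4, was 548 kb upstream, and the nearest Bio-Myc peak, between 53246877 and 53247631 and scoring 164, was 1288 kb upstream. Farther from the nearest peak were 10.3% of protein-coding genes for Max and 9.05% for Bio-Myc, where the median distances were 22.1 kb and 113 kb. The 250 bases before its outermost TSS (chr5:51958965-51959214, mm9) are shown beside those of Nrf1 for their difference in composition. Capitals mark 1 CACATG.
Ppargc1a upstream: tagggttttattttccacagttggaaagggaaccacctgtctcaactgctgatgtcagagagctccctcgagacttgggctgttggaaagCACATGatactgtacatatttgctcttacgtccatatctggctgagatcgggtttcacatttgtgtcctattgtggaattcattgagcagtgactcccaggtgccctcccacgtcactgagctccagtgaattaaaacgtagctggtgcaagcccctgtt

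Ppargc1b, a close relative of Ppargc1a with overlapping function, had the strongest peaks of the members. It spans 61457790 to 61560085 on chromosome 18, minus strand (ENSMUSG00000033871.8). The Bio-Myc peak from 61558272 to 61560108 scored 202, above 76.1% of its list, and the Max peak from 61557999 to 61560392 scored 452, above 89.9% of its list. They were the widest peaks of the members, with 1837 and 2394 bp, the Bio-Myc peak lay wholly within the Max peak, and the centres were 5 bp apart. Both covered both annotated TSSs but reached mainly into the gene, with centres 895 bp and 890 bp downstream of the outermost TSS. Both held the same 3 E-Boxes in the intron, 278, 516 and 666 bp downstream of that TSS. The coactivator genes thus stood at the ends of the range, Ppargc1b with the highest scores and Ppargc1a with no peak.

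CACGTG was present under 2 of the 7 Bio-Myc peaks of the members (Ppargc1b and Esrra) and under the nearest Max peak of 3 of the 8 genes with one (Ppargc1b, Esrra and Tfb2m). Among protein-coding genes with a peak within 1 kb, 49.7% had a CACGTG under a Bio-Myc peak and 38.6% under a Max peak. None of the E-Boxes of the members other than those of Esrra lay in the central 200 bp of its peak. When CACGCG and CACATG were counted as well, 6 of the 7 Bio-Myc genes and 7 of the 8 Max genes had a match, against 86.5% and 77.9% of protein-coding genes with such peaks. These letters are common, and CACGCG alone occurred within 500 bp of the outermost TSS in 26.6% of all protein-coding genes and CACATG in 34.0%. In the same window, 3 of the 9 members had a CACGTG (17% of protein-coding genes), 2 an NRF1 core (3.20%), which were Tfb2m and Gabpa, and 2 a GABP motif (6.97%), which were Tfam and Gabpa. No member had an ERR motif there (1.69%). Among genes with a Bio-Myc peak, 35.2% had a CACGTG in that window, 6.81% an NRF1 core and 14.8% a GABP motif. Among those with a Max peak the shares were 28.5%, 5.97% and 11.7%. A match is a description of the letters.

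In base composition, too, Ppargc1a stood apart. Within 500 bp of the outermost TSS, the ratio of observed to expected CpG was 0.228 at Ppargc1a and between 0.679 (Polrmt) and 0.919 (Tfb2m) at the other 8 genes, where the median of protein-coding genes was 0.549. The GC content was 42.0% at Ppargc1a, 49.4% at Polrmt, below the median of 54.7%, and between 55.8% (Tfb1m) and 71.8% (Nrf1) at the other genes. Peaks of both lists concentrate at CpG-rich promoters. Among the 10212 protein-coding genes with a ratio of 0.6 or more, a limit set after the values of the members were seen, Bio-Myc was bound at 27.0% and Max at 59.8%, and below it at 4.22% and 13.8%. Of the members, 8 were above the limit (45.6% of protein-coding genes were at or above it), 7 of them with a Bio-Myc peak and 8 with a Max peak. Tfb2m, without a Bio-Myc peak, had the highest ratio of the 9. The part of CpG content in these counts was not tested.

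**Figure D3:**
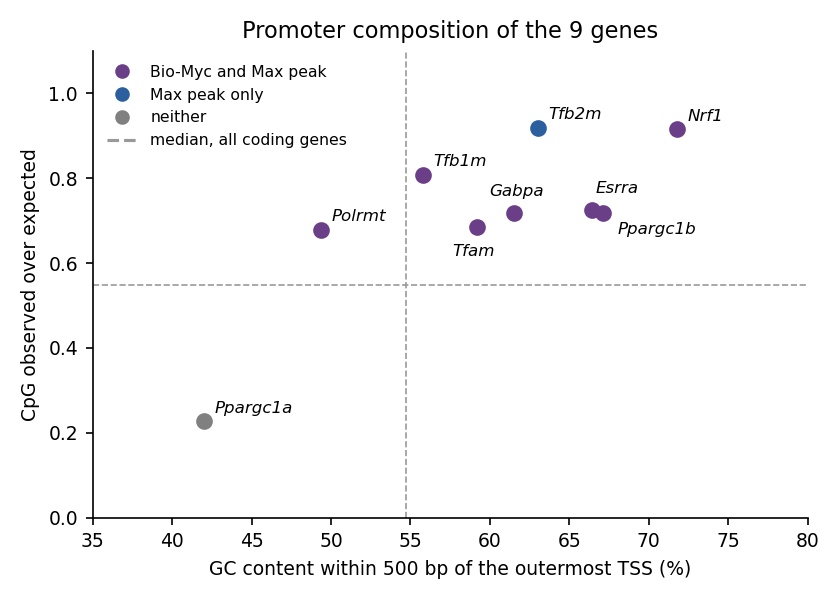
GC content (in %) and ratio of observed to expected CpG within 500 bp of the outermost TSS of each of the 9 genes, coloured by the peaks within 1 kb, with dashed lines at the medians of all protein-coding genes. Ppargc1a, at 42.0% and 0.228, lies far below the other 8 in CpG ratio, and Tfb2m and Nrf1 are the highest.

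Lists of other genes of mitochondrial biogenesis were set beside the members. Whether the peaks of these other genes also cover a TSS of a neighbouring gene is not given here. Of 14 genes for mitochondrial DNA replication and upkeep, 4 had a Bio-Myc peak within 1 kb of a TSS (14.6% of protein-coding genes). A Max peak was found at 11 of the 14 (34.8% of protein-coding genes), a Max peak alone at 7 (22.1%) and neither at 3 (14149 of 22380 protein-coding genes). The 4 with a Bio-Myc peak were Lig3 (a DNA ligase), with a score of 374, and Twnk (the mitochondrial helicase, annotated as Peo1) with 285. The others of the 4 were Dna2 (a nuclease and helicase) with 122 and Lonp1 (a mitochondrial protease) with 118. Polg, the catalytic subunit of the mitochondrial DNA polymerase, and Polg2, its accessory subunit, had a Max peak over a TSS, with scores of 440.1 and 282, and no Bio-Myc peak within 5 kb.

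Of 15 genes for mitochondrial transcription and RNA processing, 7 were bound by Bio-Myc (14.6% of protein-coding genes) and 9 by Max (34.8%). Both were found at 6 (12.7% of protein-coding genes) and neither at 5 (14149 of 22380 protein-coding genes). The strongest Bio-Myc peaks were at Supv3l1 (an RNA helicase of mitochondrial RNA decay), with a score of 990.0, above 99.6% of the list, and at Slirp (an RNA-binding partner of Lrpprc), with 854, followed by Trmt10c (a subunit of mitochondrial RNase P) with 208. Tefm, the elongation factor of mitochondrial transcription (annotated as 1110002N22Rik), was bound over a TSS by both, scoring 174 for Bio-Myc and 197 for Max. At Fastkd2, a mitochondrial RNA-binding protein gene, a Bio-Myc peak with a score of 165 had no Max peak within 1 kb, and the nearest was 370 kb away. A Bio-Myc peak alone was found at 443 of 22380 protein-coding genes. The scores at Supv3l1 and Slirp were higher than that of any of the 9 regulator genes.

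Of 18 partners, relatives and further regulators, 8 were bound by Bio-Myc (14.6% of protein-coding genes) and 11 by Max (34.8%). Both were found at 7 (12.7% of protein-coding genes) and neither at 6 (14149 of 22380 protein-coding genes). The highest Bio-Myc score was that of Pprc1, the third member of the coactivator family of Ppargc1a and Ppargc1b. Its Bio-Myc peak scored 1443, above 99.9% of the list, and its Max peak 1516, each over a TSS and with 5 E-Boxes. The family thus ranged from no peak at Ppargc1a through 202 at Ppargc1b to 1443 at Pprc1 in Bio-Myc score. Gabpb2 had the second highest score, 418, and Yy1, a zinc finger transcription factor gene, the third, 265. Gabpb1, which encodes the main partner subunit of Gabpa, was bound weakly by Bio-Myc at a TSS, scoring 88.7. The Max list had no peak closer to Gabpb1 than 104 kb (a Bio-Myc peak alone was found at 443 of 22380 protein-coding genes). Of the relatives of Esrra, Esrrb, a pluripotency factor of ESCs, was bound by Bio-Myc 654 bp past a TSS, scoring 95.4 with 4 E-Boxes, and by Max 94 bp past one, scoring 236. Esrrg was bound by Max at a TSS, scoring 201, with the closest Bio-Myc peak 641 kb away. The share of genes with a Bio-Myc peak in the lists is shown beside that of the members, and the differences were not tested.

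**Figure D4:**
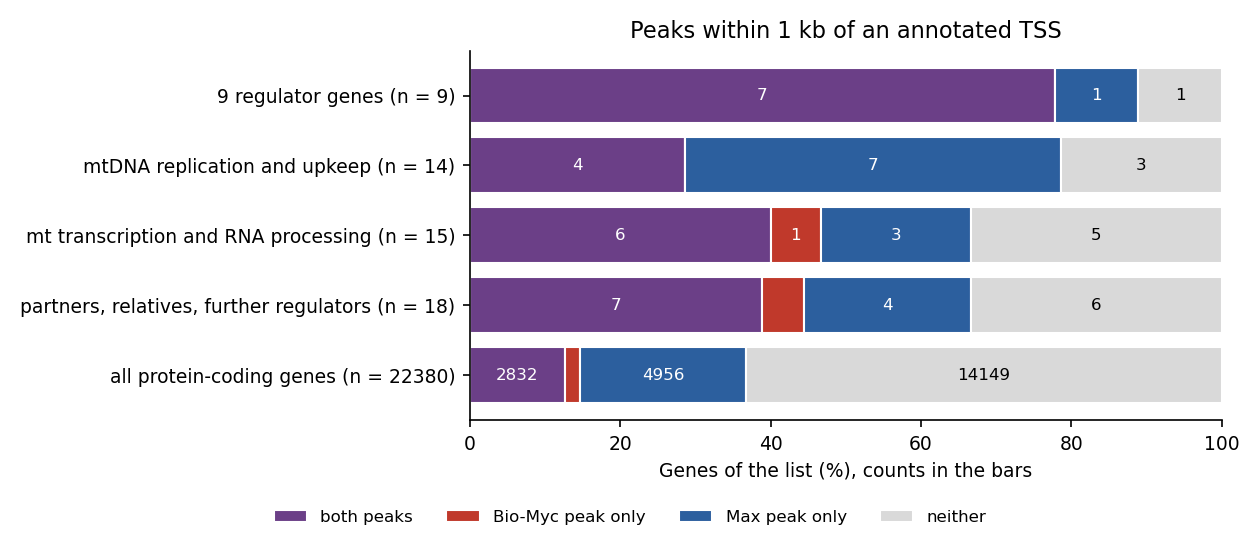
Percentage of the genes of each list with both peaks, a Bio-Myc peak only, a Max peak only or neither within 1 kb of an annotated TSS, with counts in the bars. Both peaks were found at 7 of the 9 regulator genes, 4 of 14, 6 of 15 and 7 of 18 genes of the other lists and 2832 of 22380 protein-coding genes.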

How the data were processed

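The data were 2 peak lists from 4 ChIP-Seq samples of mouse ESCs. The authors sequenced on an Illumina HiScanSQ, kept uniquely mapped reads (Bowtie 0.12.7, mm9, at most 2 mismatches), removed duplicates and called peaks per library (MACS 1.4.1, p-value limit 1e-08) against the mock or IgG ChIP. The cells of the mock ChIP differ between the methods (BirA-ES cells) and the sample label (wild type). The deposited score of a peak is 10 times the −log10 of that p-value. Reads per library are not part of the lists, so depth is unknown and no interval between libraries could be given. Unique mapping leaves out repeated sequence.

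Peaks were set beside every annotated TSS of GENCODE M1 on the mm9 sequence. A peak counted when it overlapped the region within 1 kb or 5 kb of a TSS. Distances run from the TSS to the nearest base of the peak. Coordinates are 1-based, and sequences are of the mm9 assembly. The members and lists were chosen with earlier results of these data known. All 9 members were named, and of the other lists the 3 highest Bio-Myc scores, genes with a Bio-Myc peak and no Max peak, and relatives or partners of members. Lonp1, Polg, Polg2 and Tefm were named after their values were seen. Older symbols were matched through RefSeq synonyms (GRCm38.p6 table), and of the 2 records of Nsun4 the longer was used. The alternatives were other windows, TSS choices, p-value limits, peak centres, equal list sizes, parts of peaks and E-Box sequences. Tools were Python 3.11.15 (pysam 0.24.0, scipy 1.17.1, matplotlib 3.10.9) and samtools 1.23.1. Window, distance and motif functions were tested on simulated data, and 8 of 8 steps returned the known answers.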

Additional observations from a re-analysis of the deposited data

How the results depend on the processing

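Of 39 recomputed counts, 32 stayed within 1.5 times the count given, a limit that a fall from 7 to 5 also meets. Windows from 500 bp to 5 kb could not change the counts of members with a peak. The nearest peaks lay at most 164 bp or at least 15.3 kb from a TSS. The numbers of members with a Bio-Myc, a Max and both peaks were 7, 8 and 7 within 500 bp, 5 kb and from 3 kb upstream to 2 kb downstream of a TSS, with coding or outermost TSSs alone, and by peak centres. Under these settings the shares of protein-coding genes ran from 13.6% to 16.6%, from 32.2% to 38.6% and from 11.7% to 14.5%. With the TSS itself covered the counts of members were 7, 7 and 6, Esrra losing its Max peak. The shares of protein-coding genes were then 13%, 30% and 10.9%. At a p-value of 1e-15 the Bio-Myc and shared counts fell to 2 and 2 (6.85% and 5.85% of protein-coding genes), since fewer peaks enter. With the Max list cut to its 3962 highest scores, 5 members had a Max peak (15.5% of protein-coding genes) and 5 both (8.33%). A Bio-Myc peak alone was left at 2 (Polrmt and Nrf1) and a Max peak alone at 0, for which no share of protein-coding genes is given. In the central 200 bp, 1 of the 7 Bio-Myc genes and 1 of the 8 Max genes had an E-Box (Esrra in both). The shares among protein-coding genes with such peaks were close to this, at 17.8% and 18%. With CACGCG and CACATG added, 6 and 7 members had a match, against 86.5% and 77.9% of protein-coding genes with such peaks. The unknown depth limits what a missing peak at Tfb2m or Ppargc1a can show.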
